A study of Mus musculus with 6 samples.

Results

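A set of 10 imprinted genes of the fetal growth network was followed in mouse skeletal muscle: Igf2, H19, Dlk1, Meg3, Cdkn1c, Peg3, Plagl1, Grb10, Mest and Ndn. They were taken by symbol from a table of estimated fragment counts, using the row with the highest summed count where a symbol had more than 1 row, which gave 10 genes of the 27131 in the table. The muscle was the levator ani/bulbocavernosus (LA/BC), an androgen-dependent pelvic muscle of the male mouse, taken at 14 weeks of age. The groups were 3 wild-type mice (WT) and 3 mice carrying the 113Q genotype, a knock-in that models spinal and bulbar muscular atrophy (SBMA), a disease of motor neurons and muscle. Both groups were kept on standard chow, and each library came from 1 mouse. The knock-in is present in all cells of the animal, so a difference in muscle RNA can follow from events in muscle, nerve or other tissue.

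An imprinted gene is transcribed mainly from the copy inherited from 1 parent, under the control of DNA methylation set in the germ line. Many such genes act on growth before birth, are switched down together after birth, and remain detectable in stem and support cells of adult tissues, muscle satellite cells included. Paternally expressed growth promoters (Igf2, Dlk1, Peg3, Plagl1, Mest) are commonly contrasted with maternally expressed growth restrainers (H19, Cdkn1c, Grb10). The deposited counts do not separate the parental copies, so only the summed RNA of each gene was measured.

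The libraries held 43581087 to 73873481 estimated counts. Of the genes in the table, 16960 passed the filter on low counts, all 10 network genes among them. The defining myofibre gene Ckm was abundant in every library, with a mean of 36568 CPM (counts scaled to library size and by TMM factors) among WT mice and 11148 CPM among 113Q mice. The epithelial marker Epcam exceeded 1 CPM in 3 libraries (WT mouse 2, 113Q mouse 2 and 113Q mouse 3) and was at 0 in those of WT mouse 1 and 113Q mouse 1.

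Of the network genes, 4 rose in 113Q muscle (Grb10, Peg3, Ndn and Meg3), 1 fell (H19) and 5 did not pass the test (Igf2, Dlk1, Cdkn1c, Plagl1 and Mest), which was edgeR's quasi-likelihood test with Benjamini-Hochberg adjustment at a threshold of 0.05. Over all tested genes 16.5% rose and 18.1% fell at the same threshold, and 34.6% passed in either direction, so with 10 genes a count of 5 called is near the background. The members that rose were the same 4 whose WT and 113Q libraries did not overlap on the higher side, against 25.1% of all tested genes; H19 was the only member whose libraries did not overlap on the lower side, against 24.8%. The median log2 fold change of the members was 0.33, beside 0.01 for all tested genes. The fall of H19 was extreme within the whole table, since 99.2% of tested genes had a higher log2 fold change.

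The scale matters for the smaller differences. TMM factors were 0.768 to 0.794 in WT and 1.26 to 1.32 in 113Q, and with library totals alone the median of all genes moved by 0.72 to 0.73, with 11015 genes higher and 710 lower in place of 2791 and 3078. On that scale 7 members rose, Igf2 (0.80), Cdkn1c (0.63) and Plagl1 (1.31) joining the 4, while H19 fell by 2.04 on the log2 scale. Relative to the shifted median the members kept their order. Because muscle was sequenced in bulk, fewer cells of a type and less RNA per cell cannot be told apart in any of these values.

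**Figure D1:**
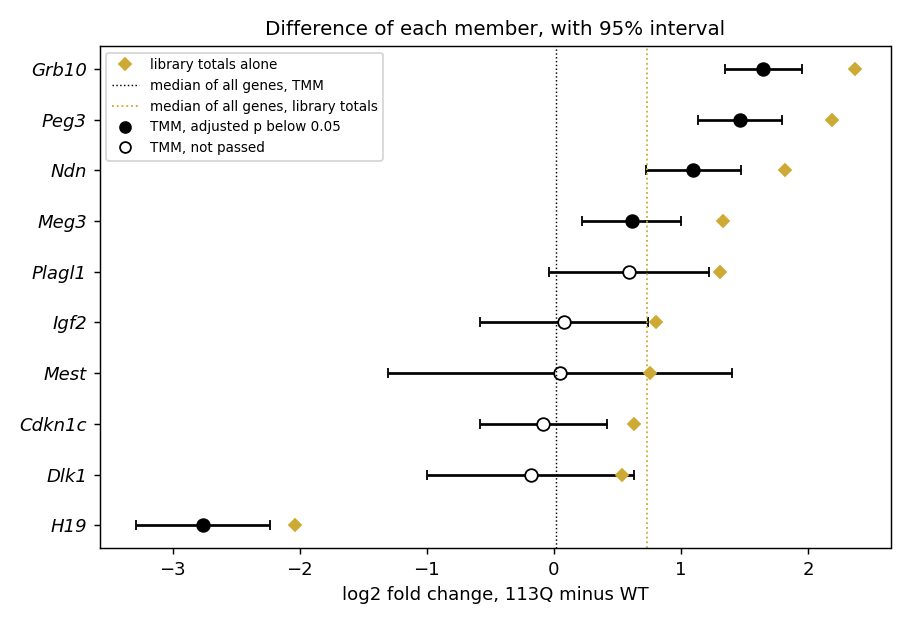
Log2 fold change (113Q minus WT) of each member with its 95% interval from the TMM-scaled fit (black; filled where the adjusted p was below 0.05) and the value with library totals alone (gold diamonds), with the median of all genes on each scale as a dotted line. H19 lies at -2.76 and Grb10, Peg3, Ndn and Meg3 at 0.61 to 1.65 on the TMM scale, and every diamond is shifted to the right by a similar amount.

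The H19 and Igf2 genes lie next to each other at the distal end of mouse chromosome 7, share enhancers and are expressed from opposite parental copies. H19 makes a long noncoding RNA that is spliced, abundant in fetal muscle and retained in adult skeletal muscle, and Igf2 encodes insulin-like growth factor 2, a growth factor of embryo and regenerating muscle. H19 (chr7:142575529-142578143, minus strand, GRCm38) measured 1783, 1245 and 1430 CPM in WT and 249, 251 and 157 in 113Q. Every 113Q library lay far below every WT library. The mean fell from 1486 ± 274 to 219 ± 53.4 CPM (SD, n = 3 each), 0.147 of the WT level, with a log2 fold change of -2.76 ± 0.22 (SE; 95% interval -3.29 to -2.24) and an adjusted p of 0.000175 by edgeR's quasi-likelihood test. Its counts were fractional, a sign of fragments divided between overlapping models, and adding a second, near-empty row under the same symbol left the log2 fold change at -2.76. Among all genes of the table ordered by count, H19 stood at place 62, 94 and 82 in the WT libraries and at place 418, 428 and 822 in the 113Q libraries.

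Igf2 (chr7:142650766-142666816, minus strand) showed no such difference. It measured 40.1, 24.0 and 35.2 CPM in WT and 44.4, 24.4 and 35.8 in 113Q, and the groups overlapped throughout. The log2 fold change was 0.08 ± 0.27 (SE; adjusted p = 0.855 by edgeR), with a 95% interval from -0.58 to 0.74 that leaves room for moderate differences either way. Within a library, which removes the scaling, the log2 ratio of H19 to Igf2 counts was 5.47, 5.70 and 5.34 in WT and 2.48, 3.36 and 2.13 in 113Q. The ratios of the groups did not overlap, and their means differed by -2.85 (exact two-sided permutation test, p = 0.1, the smallest that 3 against 3 libraries can give). The exons of Igf2 overlap a gene on the other strand, annotated as Igf2os, and the strand setting of the counting is not given in the sources used here, so reads from the pair cannot be told apart. A row named Igf2as held few counts, fractional in 5 libraries, and a separate row of the table was named Igf2os. Whether the 2 rows divide the fragments of 1 gene was not tested. The Igf2as row measured 0.178, 0.0944 and 0.308 CPM in WT and 1.19, 0.402 and 0.933 in 113Q. The groups did not overlap, with a log2 fold change of 2.11 ± 0.57 (SE; adjusted p = 0.0212 by edgeR), a call lost on leaving out WT mouse 1 (0.0653), WT mouse 2 (0.0564), 113Q mouse 1 (0.0779) or 113Q mouse 3 (0.0661). The Igf2as call was also lost with limma voom (adjusted p = 0.0921).

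**Figure D2:**
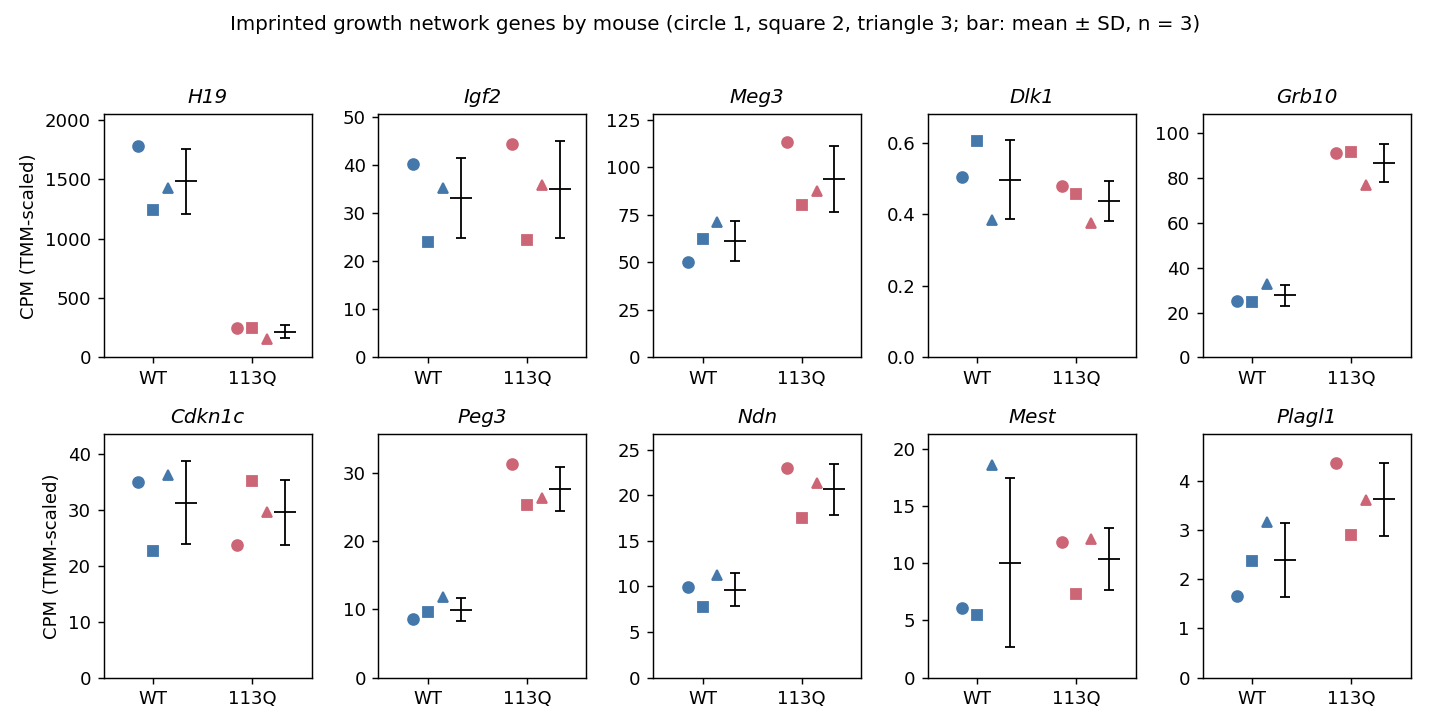
TMM-scaled CPM of the 10 members in each library (vertical axes, each from 0; circle, square and triangle are mice 1, 2 and 3 of a group; bars are mean ± SD, n = 3). H19 is low in all 3 113Q mice, Grb10, Peg3 and Ndn are high in all 3, and Igf2, Dlk1, Cdkn1c and Mest overlap between the groups.

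H19 is also the host of a microRNA, miR-675, which is processed from its first exon, and Meg3 hosts miR-770. They are shown because the host transcripts are the noncoding members that passed the test; the capitals mark the seed, bases 2 to 8, and the sequences are from RefSeq (GRCm38.p6).
mmu-miR-675-5p: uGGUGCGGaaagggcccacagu
mmu-miR-675-3p: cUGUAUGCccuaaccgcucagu
mmu-miR-770-5p: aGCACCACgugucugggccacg
mmu-miR-770-3p: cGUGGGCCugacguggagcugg
The 4 mature sequences have 4 different seeds. The rows Mir675 and Mir770 were at 0 in all 6 libraries, in counts of a kit for messenger RNA that does not measure mature microRNAs, so these data hold the host transcripts only.

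Tested genes that start within 250 kb of the start of H19 were found by their names in the GENCODE annotation. Of these 7, 4 fell and 1 rose on the TMM scale, where 18.1% and 16.5% of all tested genes did. The Igf2as row, which rose (log2 fold change 2.11), was not found by that name and is not counted. Of the 4 that fell, Tnnt3 and Tnni2 are also on the list of myofibre markers. Nctc1, a noncoding transcript that runs through the muscle enhancer shared by H19 and Igf2, lies 19.55 kb downstream; it measured 355, 395 and 301 CPM in WT and 96.8, 75.8 and 96.8 in 113Q. Its groups were well apart, with a log2 fold change of -1.96 ± 0.14 (SE; adjusted p = 4.3e-05, edgeR). The fast troponin genes of the same segment, Tnnt3 (29481 to 8790 CPM) and Tnni2 (14463 to 4325 CPM), had log2 fold changes of -1.75 and -1.74. Mrpl23, which encodes a mitochondrial ribosomal protein, was at -0.63 with TMM scaling and at 0.09 with library totals. Igf2, on the opposite side of H19 and served by the same enhancers, did not pass the test. The gene that rose among the 7, Lsp1 (0.38), lost its call on leaving out any mouse but 113Q mouse 2 (adjusted p = 0.0581 to 0.134, edgeR). Its call was also lost with RLE scaling factors, edgeR without robust estimation, limma voom or the replicate block.

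All 12 listed myofibre markers fell, Tnnt3 and Tnni2 among them, where 18.1% of all tested genes fell. The summed level of the 12 was 195107 to 217170 CPM in WT and 46347 to 55539 CPM in 113Q, with none of them at 0. All 9 endothelial markers fell as well, with sums of 462 to 572 CPM in WT and 321 to 330 CPM in 113Q on the TMM scale; with library totals Pecam1, the defining endothelial gene, was at -0.07. Per 1000 CPM of the myofibre markers, H19 was 9.14, 5.73 and 7.12 in WT and 5.36, 4.54 and 2.83 in 113Q. The groups did not overlap on this measure either, but the lowest WT library and the highest 113Q library were close. The log2 difference was -0.81 (exact two-sided permutation test, p = 0.1, the smallest possible), against -2.76 without the division. The part of fibre content in the fall of H19 was not tested. The ratio cannot separate fewer fibres from less marker RNA per fibre, and 2 of its markers, Tnnt3 and Tnni2, lie near H19.

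**Figure D3:**
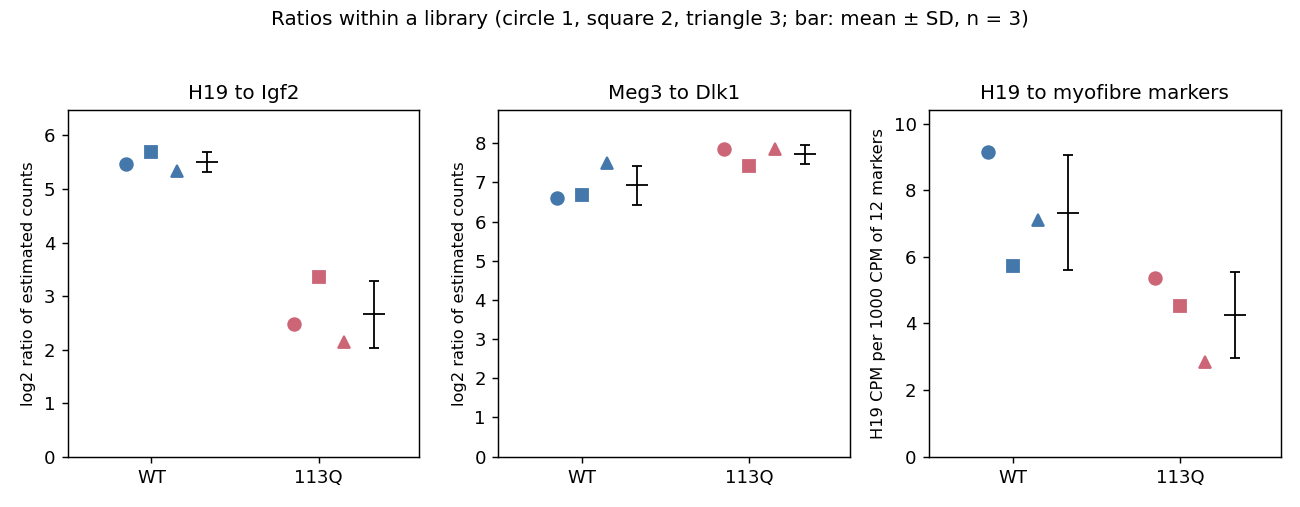
Left and centre, log2 ratio of estimated counts of H19 to Igf2 and of Meg3 to Dlk1 in each library; right, H19 CPM per 1000 CPM of 12 myofibre markers (circle, square and triangle are mice 1, 2 and 3; bars are mean ± SD, n = 3; vertical axes from 0). The H19 to Igf2 ratio lies at 5.34 to 5.70 in WT and 2.13 to 3.36 in 113Q, while the distance between groups is small for H19 per myofibre marker.

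Grb10 and Cdkn1c are maternally expressed restrainers of growth with different modes of action. Grb10 encodes an adaptor protein that binds activated insulin and IGF1 receptors and dampens their signal, and mice without it have more muscle. It measured 25.2, 24.7 and 32.9 CPM in WT and 91.3, 91.6 and 76.9 in 113Q. Each 113Q library held more than any WT library by a wide margin. The mean rose from 27.6 ± 4.60 to 86.6 ± 8.40 CPM (SD, n = 3 each), 3.13-fold, with a log2 fold change of 1.65 ± 0.13 (SE) and an adjusted p of 8e-05 by edgeR, the smallest adjusted p among the members. Of the tested genes 3.27% had a higher log2 fold change.

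Cdkn1c encodes p57, an inhibitor of cyclin-dependent kinases that takes cells out of the cycle during muscle differentiation. It measured 35.1, 22.8 and 36.3 CPM in WT and 23.8, 35.3 and 29.8 in 113Q, and the groups overlapped. The log2 fold change was -0.08 ± 0.21 (SE; 95% interval -0.59 to 0.42; adjusted p = 0.799 by edgeR). Leaving out each mouse in turn gave -0.27 to 0.059, above 0 without WT mouse 1, WT mouse 3 or 113Q mouse 1, and library totals gave 0.63 (adjusted p = 0.0308, edgeR). Without the 3 libraries holding Epcam, which leaves 2 WT mice and 1 113Q mouse, it was -0.59 (adjusted p = 0.031, edgeR). Over all alternatives the adjusted p of Cdkn1c ran from 0.0308 to 0.996.

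Within the insulin-like growth factor axis around Igf2 and Grb10, a list of 21 genes, 17 were tested. Of the 17, 5 rose, 2 fell and 10 did not pass, where 16.5% of all tested genes rose and 18.1% fell. The median log2 fold change of the list was -0.02. Those that rose were Igf1r, the signalling receptor for IGF1 and IGF2 (24.6 to 43.3 CPM, log2 fold change 0.82); Igfbp2, a binding protein (4.71 to 21.0 CPM, 2.15); Igf2r, the receptor that clears IGF2 (119 to 155 CPM, 0.38); Igf2bp3, which binds Igf2 mRNA (1.42); and Pappa2, a protease of binding proteins (1.42). Irs1, the adaptor downstream of the receptors, fell from 88.4 to 43.0 CPM with TMM scaling (log2 fold change -1.04; adjusted p = 0.00258 by edgeR), and with library totals it was at -0.31 and did not pass. The insulin receptor gene Insr was at -0.34 with TMM scaling and at 0.38 with library totals, so its direction depends on the scale. Igf1, the other ligand, was at -0.29 and did not pass (adjusted p = 0.357 by edgeR), and Ins2 was at 0 in every library. The counts of this list moved with single mice: 3 genes rose without WT mouse 1, WT mouse 3, 113Q mouse 1 or 113Q mouse 2, and 1 fell without WT mouse 3, 113Q mouse 2 or 113Q mouse 3.

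Dlk1 and Meg3 form a second imprinted pair, on chromosome 12, with Dlk1 paternal and the long noncoding RNA Meg3 maternal. Dlk1 encodes a membrane protein of the Notch ligand family that marks fetal muscle and preadipocytes. It was the least abundant member, with 17, 32 and 20 estimated counts in WT and 43, 41 and 35 in 113Q, or 0.503, 0.604 and 0.385 CPM against 0.480, 0.458 and 0.375 CPM. The groups overlapped, and the log2 fold change of -0.18 ± 0.36 (SE) had a 95% interval from -1.0 to 0.63 (adjusted p = 0.728 by edgeR). The interval reflects the spread between 3 mice a group as well as counting.

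Meg3 (chr12:109541001-109571726, plus strand) measured 50.3, 62.3 and 71.2 CPM in WT and 113, 80.0 and 87.7 in 113Q. The groups did not overlap, although the highest WT and the lowest 113Q library were near each other. The mean rose from 61.3 ± 10.5 to 93.6 ± 17.4 CPM (SD, n = 3 each), with a log2 fold change of 0.61 ± 0.17 (SE) and an adjusted p of 0.0249 by edgeR. The call was lost on leaving out WT mouse 1 (adjusted p = 0.0653), WT mouse 2 (0.0683), 113Q mouse 1 (0.0602) or 113Q mouse 3 (0.0520), each by edgeR, and the adjusted p ranged from 0.0005 to 0.069 over all alternatives. The log2 ratio of Meg3 to Dlk1 was 6.60, 6.67 and 7.49 in WT and 7.86, 7.43 and 7.85 in 113Q, which overlapped (difference 0.79; exact two-sided permutation test, p = 0.2).

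Further along the same maternally expressed noncoding stretch, Rian (13.5, 17.7 and 24.7 CPM in WT; 40.7, 26.0 and 31.5 in 113Q) was higher in every 113Q library. Its log2 fold change was 0.81 ± 0.25 (SE; adjusted p = 0.0492 by edgeR), a call lost on leaving out WT mouse 1 (0.101), WT mouse 2 (0.134), 113Q mouse 1 (0.125) or 113Q mouse 3 (0.106). With all 6 mice the Rian call was also lost under several alternatives. The adjusted p was 0.0512 with RLE scaling factors, 0.0692 with no filter and 0.0774 with the replicate block (edgeR), and 0.0723 with limma voom. Mirg, the host of a large microRNA cluster, was at 0.68 (adjusted p = 0.0831, edgeR) and did not pass. Dio3, the thyroid hormone deiodinase gene at the far end of the domain, was at 0.77 (adjusted p = 0.092, edgeR) and did not pass. Rtl1, a paternally expressed gene of the domain, was below the filter with 9 estimated counts summed over WT mice and 14 over 113Q mice.

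**Figure D4:**
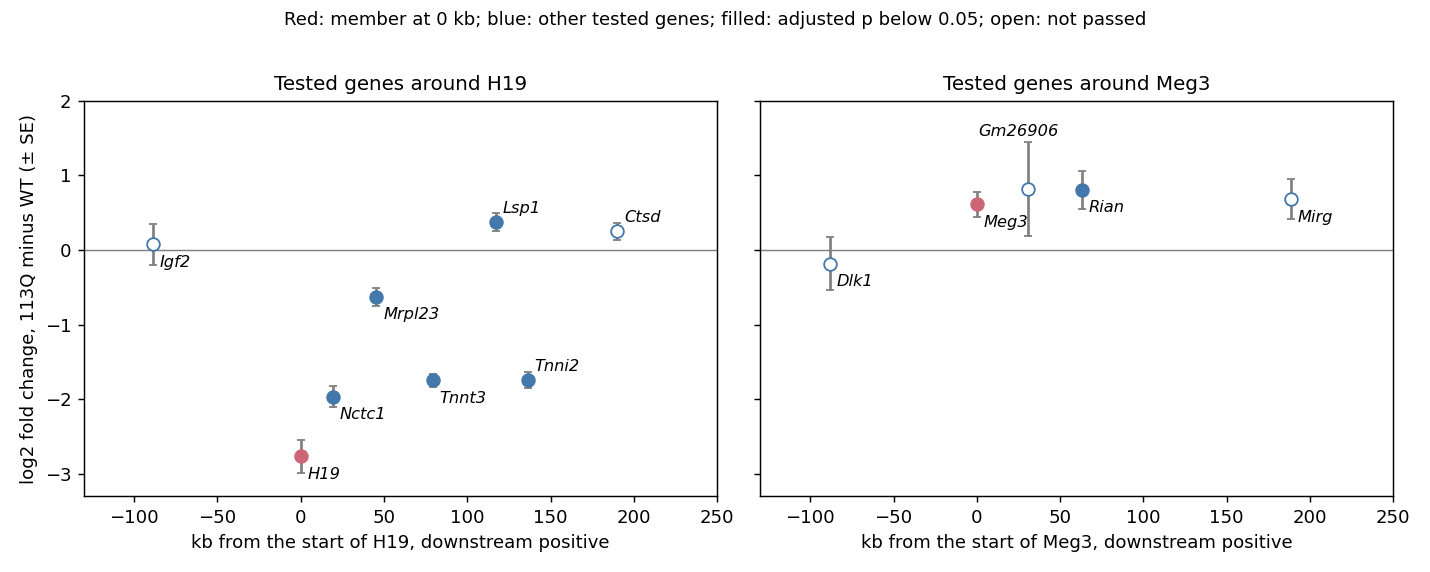
Log2 fold change (113Q minus WT, ± SE) of tested genes starting within 250 kb of the start of H19 (left) and of Meg3 (right), against distance in kb along the direction of transcription; red marks the member, filled points passed the test. Around H19 the plotted values run from -2.76 for H19 to 0.38 for Lsp1. The Igf2as row (2.11) was not found by that name in the annotation and is not plotted. Around Meg3 the noncoding genes Meg3, Rian and Mirg lie at 0.61 to 0.81 and Dlk1 at -0.18.

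The paternally expressed regulators Peg3, Ndn, Plagl1 and Mest divided into 2 that rose and 2 that did not pass. Peg3 encodes a large zinc finger protein expressed in muscle progenitors and brain. It measured 8.62, 9.55 and 11.8 CPM in WT and 31.3, 25.2 and 26.3 in 113Q, with no overlap. The mean rose from 9.98 ± 1.63 to 27.6 ± 3.23 CPM (SD, n = 3 each), 2.76-fold, with a log2 fold change of 1.46 ± 0.14 (SE; adjusted p = 0.00019 by edgeR). Its neighbour Zim1, a maternally expressed zinc finger gene 33.98 kb downstream, did not pass (log2 fold change -0.06; adjusted p = 0.881, edgeR). With library totals Zim1 was at 0.66 and passed (adjusted p = 0.0378, edgeR).

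Ndn encodes necdin, a MAGE family protein that restrains cell division and protects myoblasts from death. It measured 9.92, 7.78 and 11.3 CPM in WT and 23.0, 17.5 and 21.4 in 113Q, and all 113Q libraries were above all WT libraries. The mean rose 2.14-fold, from 9.66 ± 1.77 to 20.6 ± 2.83 CPM (SD, n = 3 each; log2 fold change 1.10 ± 0.16 SE; adjusted p = 0.00143 by edgeR). The 2 other tested genes that start within 250 kb did not pass: Mkrn3 was at 0.58 and Peg12 at 0.05. Further along the same imprinted cluster, Ube3a, a ubiquitin ligase gene, fell on the TMM scale (log2 fold change -0.55; adjusted p = 0.00528 by edgeR), while Snrpn at -0.23 and Snurf at 0.004 did not pass.

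Plagl1 encodes ZAC1, a zinc finger transcription factor described as a regulator of other imprinted genes. It measured 1.66, 2.38 and 3.16 CPM in WT and 4.37, 2.90 and 3.61 in 113Q, and a single pair of libraries, WT mouse 3 and 113Q mouse 2, made the groups overlap. The log2 fold change of 0.59 ± 0.27 (SE; 95% interval -0.04 to 1.22) did not pass (adjusted p = 0.132 by edgeR).

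Mest encodes a protein of the alpha/beta hydrolase fold that is raised in expanding fat tissue. It measured 6.07, 5.45 and 18.5 CPM in WT and 11.8, 7.27 and 12.1 in 113Q. WT mouse 3 was higher than any other library, and the WT coefficient of variation was 73.7%. The log2 fold change was 0.05 ± 0.54 (SE; adjusted p = 0.956 by edgeR) with a 95% interval from -1.30 to 1.40, and without WT mouse 3 it was 0.85 (adjusted p = 0.04, edgeR). The same mouse had the highest summed adipocyte markers of all 6 (684 CPM, beside 429 and 210 in the other WT mice and 206, 340 and 415 in the 113Q mice). Its fibroblast marker sum was the highest of the WT mice (1937 CPM, beside 1067 and 1504) but below that of 113Q mouse 1 (2193 CPM). The part of these cells in the Mest value was not tested. Copg2 overlaps Mest on the other strand, and without a stated strand setting reads of the overlap cannot be assigned. Copg2 had means of 28.6 CPM in WT and 36.5 CPM in 113Q, above those of Mest. Its log2 fold change was 0.35 (adjusted p = 0.0418 by edgeR). That call was lost on leaving out WT mouse 1 or any 113Q mouse (adjusted p = 0.0630 to 0.119, edgeR). Adding the replicate block or the Epcam term also removed it.

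Markers of satellite cells, the stem cells of muscle in which several of these genes are known to be expressed, moved in the same direction as Grb10, Peg3, Ndn and Meg3. Of 11 satellite cell markers 8 rose and none fell, where 16.5% of all tested genes rose and 18.1% fell. The sums of these markers were 183 to 212 CPM in WT and 269 to 287 CPM in 113Q, with no marker at 0. Pax7, the defining one, was at 0.84, and in the fit without the 3 Epcam libraries, which holds 1 113Q mouse, it was at 0.81 (adjusted p = 0.0622, edgeR). Smooth muscle marker sums were also higher, 192 to 690 CPM in WT against 1183 to 2693 CPM in 113Q, with 1 of 8 markers passing. None of the 10 fibroblast markers passed (sums of 1067 to 1937 CPM and 1615 to 2193 CPM). Among the other lists, 1 of 7 adipocyte markers fell, 1 of 7 Schwann cell markers rose, none of 8 epithelial or 7 macrophage markers passed, and of 7 genes of new or denervated fibres 4 rose and 2 fell. The part of these cells in the rise of the 4 genes was not tested; in the fit without the 3 Epcam libraries the same count of 4 members rose.

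The promoters of the 4 genes that rose are shown because each of these members passed the test in the same direction. Each is the RefSeq window of 250 bases before to 50 after an annotated start (GRCm38.p6), the one nearest the 5′ end where Grb10 and Meg3 have a second start. Windows were found for 8 of the 10 members, and H19 and Cdkn1c are named only. A total of 6 motifs were chosen after the sequences had been seen, and both strands were searched. Capitals mark GGGGCCCC, a palindrome bound by ZAC1, present in 1.08% of all 32851 promoter windows, or TGACGTCA, the cyclic AMP response element, present in 1.79%.
Peg3 promoter, chr7:6730370-6730669, minus strand: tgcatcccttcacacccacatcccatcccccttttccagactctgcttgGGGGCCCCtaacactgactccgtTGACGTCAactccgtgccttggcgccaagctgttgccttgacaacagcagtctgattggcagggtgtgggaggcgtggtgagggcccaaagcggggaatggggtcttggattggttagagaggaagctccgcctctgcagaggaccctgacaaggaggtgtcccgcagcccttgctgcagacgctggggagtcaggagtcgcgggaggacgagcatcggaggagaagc
Meg3 promoter, chr12:109540746-109541045, plus strand: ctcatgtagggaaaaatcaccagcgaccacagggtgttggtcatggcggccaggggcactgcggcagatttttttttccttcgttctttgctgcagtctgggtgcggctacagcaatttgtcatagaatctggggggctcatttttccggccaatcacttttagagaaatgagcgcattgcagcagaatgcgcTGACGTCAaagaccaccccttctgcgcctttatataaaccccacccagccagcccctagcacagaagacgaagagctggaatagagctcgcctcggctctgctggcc
Ndn promoter, chr7:62348027-62348326, plus strand: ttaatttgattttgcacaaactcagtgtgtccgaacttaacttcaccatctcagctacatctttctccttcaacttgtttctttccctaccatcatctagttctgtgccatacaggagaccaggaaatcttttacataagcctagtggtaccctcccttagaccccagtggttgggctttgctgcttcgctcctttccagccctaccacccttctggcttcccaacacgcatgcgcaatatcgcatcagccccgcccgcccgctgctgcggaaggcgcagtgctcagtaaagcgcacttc
Grb10 promoter, chr11:12037371-12037670, minus strand: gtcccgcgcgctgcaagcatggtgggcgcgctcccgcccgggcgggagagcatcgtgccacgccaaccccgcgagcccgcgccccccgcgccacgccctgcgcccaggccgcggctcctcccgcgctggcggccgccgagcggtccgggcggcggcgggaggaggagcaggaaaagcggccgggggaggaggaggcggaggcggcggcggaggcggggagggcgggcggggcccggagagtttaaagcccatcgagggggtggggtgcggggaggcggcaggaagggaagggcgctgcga
The Peg3 window held both motifs, at positions 50 and 73 counted from its 5′ end. The Meg3 window held the cyclic AMP element at position 194. No match of either motif lay in the Ndn and Grb10 windows, which says only that these letters are not there. The Grb10 window was 80.0% G and C with 45 CpG dinucleotides, against medians of 52.67% and 7 over all windows, and the Ndn window was 51.0% with 11. The other 4 motifs had no match in the windows printed: the E-box CAGCTG (16.3% of all windows; 1 Mest window), the steroid receptor half-site AGAACA (6233 windows; 1 Igf2 window), the CTCF core, named only (0.0365%; no member window) and the YY1 core CCATNTT (16.1%; 1 Igf2 window and the second Grb10 window). A match is a description of the letters and not evidence of binding.

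Compared per kb of exon, with lengths from the GENCODE annotation and not the authors' own gene models, H19 was the most abundant member in both groups, at 650 ± 120 CPM per kb in WT and 95.7 ± 23.4 in 113Q (SD, n = 3 each). In WT it was followed by Cdkn1c (16.2 ± 3.85 CPM per kb), Igf2 (6.31 ± 1.58), Grb10 (5.39 ± 0.897), Meg3 (3.91 ± 0.668), Mest (3.61 ± 2.66), Ndn (2.61 ± 0.478), Peg3 (1.15 ± 0.187), Plagl1 (0.445 ± 0.139) and Dlk1 (0.104 ± 0.0229). The WT ranges of Igf2 and Grb10 overlapped, and that of Mest overlapped those of Igf2, Grb10, Meg3 and Ndn, while the ranges of the other neighbours in this order did not. In 113Q, Grb10 at 16.9 ± 1.64 CPM per kb stood second, level with Cdkn1c at 15.3 ± 2.97, where the ranges overlapped.

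From a chosen list of other imprinted genes of the mouse, 58 were found in the table and 48 were tested. Some of them are imprinted only in placenta or brain, and imprinting in this muscle was not measured. Of the 48, 14 rose, 5 fell and 29 did not pass, where 16.5% of all tested genes rose and 18.1% fell. The median log2 fold change of the list was 0.20, beside 0.01 for all genes. With library totals 39 rose and 1 fell. On mouse chromosome 6, 5 genes of the Peg10 and Sgce region rose: Peg10, a retrotransposon-derived gene (2.00 to 8.20 CPM, log2 fold change 2.02 ± 0.31 SE), Ppp1r9a (5.05 to 14.6 CPM, 1.52), Calcr, also a satellite cell marker (1.06 to 2.24 CPM, 1.08), Pon2 (35.1 to 67.8 CPM, 0.95) and Sgce (12.9 to 23.3 CPM, 0.85). Pon3 at -0.06 and Asb4 at 0.16, of the same region, did not pass. Ddc, the aromatic amino acid decarboxylase gene next to Grb10, rose from 1.69, 0.434 and 1.40 CPM to 12.4, 13.5 and 11.7 CPM, a log2 fold change of 3.44 ± 0.45 (SE; adjusted p = 0.00176 by edgeR). Every 113Q library held several times the Ddc of any WT library.

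Outside those regions, Osbpl5 (31.4 to 66.6 CPM, log2 fold change 1.08), Gatm, the first enzyme of creatine synthesis (8.40 to 19.9 CPM, 1.24), the noncoding Peg13 (29.4 to 54.3 CPM, 0.88) and Impact (20.7 to 29.6 CPM, 0.51) rose. Slc38a4, an amino acid transporter gene, fell from 160 to 67.5 CPM (log2 fold change -1.25 ± 0.17 SE; adjusted p = 0.00124 by edgeR). The others that fell on the TMM scale were Ube3a at -0.55, Gnas at -0.43, Nap1l4 at -0.39 and Blcap at -0.35. With library totals only 1 gene of the list fell, so the calls on the lower side depend on the scale.

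For H19, the member with the highest mean level, the tested genes of at least 1 CPM with the most similar pattern of log2 CPM over the 6 libraries were Ddx1, Ppp3cb and Psmd12. All 3 were lower in 113Q on the TMM scale, with log2 fold changes of -0.60, -0.41 and -0.57, and on library totals they were at 0.12, 0.31 and 0.15. The likeness is over libraries that fall into 2 separate groups, where 62 of 13700 genes reached a Pearson coefficient of 0.99, and in each of the 3 named genes the groups did not overlap.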

How the data were processed

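RNA was extracted with Trizol from LA/BC muscle that had been frozen in liquid nitrogen, and a TruSeq mRNA kit was used for the libraries; both steps are per the labels' protocols. The deposited table holds estimated counts per gene, not scaled to depth, made by the authors with Cuffdiff 2.1.1; TopHat2 2.0.9, Bowtie2 2.1.0 and build mm10 are also named in the submitters' processing notes. Which gene annotation and strand setting the authors used is not given in the sources used here. Between 5.38% and 5.96% of a library's values were fractional, and all were rounded. H19 and Meg3 were fractional in all 6 libraries and each had a second row under its symbol, so a division of fragments between overlapping models can move their level. The other 8 members had whole counts and 1 row. Outside the members, the same limit covers Nctc1, fractional in all 6 libraries. It also covers Rian and Mirg, each fractional in 5 libraries and with 2 rows.

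Genes were filtered with filterByExpr (minimum count 10), scaled by TMM and tested with edgeR 4.0.16 in R 4.3.3 (robust quasi-likelihood F test, two-sided, Benjamini-Hochberg over 16960 genes, threshold 0.05), 113Q minus WT, 3 mice each. Each library is a separate mouse by its label, with no batch given. The SE of a log2 fold change was its size over the root of F. The common biological coefficient of variation was 24.2%. A floor of 3 counts corresponded to 0.0322 to 0.0888 CPM, covering counting error only. Ratios within a library used a pseudocount of 0.5 counts. On simulated data with known changes for 113Q against WT (16707 genes), 34.5%, 62.7% and 88.6% of genes changed 1.5-, 2- and 4-fold were recovered. Of 135 calls 5.19% were false. Only 55, 75 and 70 genes were changed there, while 5869 genes were called in the real data. The shares therefore need not hold for the real data.

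The members and lists were chosen with earlier results of these data known. The genes named by rule were all members, the 8 other imprinted and 5 IGF axis genes with the smallest p, the targeted gene (not reported here), the 3 genes most like H19 and the first gene of each marker list; the remaining genes named were chosen after their values were seen. Positions are from GENCODE (GRCm38). Alternatives covered scaling, filters, tools (DESeq2 1.42.0, limma 3.58.1 voom), a replicate block, an Epcam term, each mouse left out and a threshold of 0.01.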

Additional observations from a re-analysis of the deposited data

How the results depend on the processing

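H19, Grb10, Peg3 and Ndn kept their direction and call under all 18 alternatives, with log2 fold changes of -2.88 to -2.04, 1.56 to 2.37, 1.34 to 2.19 and 0.96 to 1.82. Library totals alone gave 11015 genes higher and 710 lower, 7 members higher, 39 and 1 other imprinted genes, and 12 and 0 IGF axis genes; log2 fold changes turned to 0.54 for Dlk1, 0.63 for Cdkn1c, 0.38 for Insr, 0.66 for Zim1, 0.091 for Mrpl23, 0.12 for Ddx1, 0.31 for Ppp3cb, 0.15 for Psmd12 and 0.40 for Adipoq. A threshold of 0.01 left 1462 genes higher and 1962 lower, 9 other imprinted genes higher, and 2 and 1 IGF axis genes. Without the 3 libraries with Epcam of at least 1 CPM, a fit chosen after seeing the data whose single 113Q mouse is assumed to vary like the WT mice, 1300 genes were higher and 1827 lower, 2 members lower, 8 and 3 other imprinted genes higher and lower, and 1 IGF axis gene lower; Dlk1 was at 0.12, Mest at -0.071 and Zim1 at 0.10. With limma voom 3 IGF axis genes were higher, and Igf2 was at -0.095, Mest at -0.17, Emr1 at -0.082 and Adipoq at 0.11; Adipoq was at 0.57 with the Epcam term. The causes were not tested. The replicate block gave 2154 genes higher and 2583 lower, 3 members higher and 1 lower (Meg3 at 0.61, adjusted p = 0.069 by edgeR), and 3 and 1 IGF axis genes, with Adipoq at 0.22; deviations of mice sharing a number correlated at 0.20, 0.24 and -0.27, not every mouse correlated best with its own number, and the numbers were not taken as pairs. Leaving out each mouse gave 2004 to 2559 genes higher and 2312 to 2843 lower, 3 to 5 members higher and 1 lower, 11 to 14 and 4 to 5 other imprinted genes, 3 to 6 and 1 to 2 IGF axis genes, ratio differences of -3.20 to -2.58 (H19 to Igf2) and 0.63 to 1.08 (Meg3 to Dlk1), and log2 fold changes of -0.13 to 0.28 for Igf2, -0.27 to 0.059 for Cdkn1c, -0.25 to 0.85 for Mest, -0.83 to 0.89 for Adipoq, -0.032 to 0.32 for Emr1 and -0.21 to 0.12 for Zim1. Dlk1 had the lowest counts of the members, and Rtl1 was below the filter. The called Igf2as row held only 27.3 estimated counts summed over WT mice and 230 over 113Q mice. Depth was not varied.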
